A study of Mus musculus with 43 samples.

Results

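Atf4 and 9 genes known as targets or feedback arms of the integrated stress response (Ddit3, Atf5, Trib3, Ppp1r15a, Asns, Psat1, Chac1, Sesn2 and Ddit4) were followed through sample handling and through decreasing cell input. The members were the rows with these symbols, and all 10 were present in both expression tables, among 13845 genes in the processing experiment and 13817 genes in the input series. The cells were PD798, a line grown from 1 pancreatic tumor of a genetically engineered mouse, in which Cre driven by the pancreatic Pdx1 promoter removes 1 allele of p53 and labels the cells with yellow fluorescent protein. All groups share the alleles of this line, and all cells were grown in DMEM with 10% FBS before dissociation.

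In the processing experiment RNA was taken from bulk cells in 4 conditions with 3 libraries each. Pre-FACS cells were an aliquot set aside before sorting, and Mock cells waited in staining buffer at room temperature for as long as the others were handled. FACS-only cells received magnetic particles and red cell lysis buffer and went straight through a BD Influx sorter, whereas Pre-enriched cells passed magnetic depletion and an acoustic wash before the same sorter. The sample labels speak of spiking into mouse blood for these conditions too, which the methods of the study do not, so whether these cells met blood was not settled. In the input series PD798 cells were spiked into mouse blood, pre-enriched and sorted as 11 single cells, 12 pools of 10 cells and 6 pools of 100 cells, and 2 libraries were made from purified bulk RNA of the line. Values are TPM, a transcript abundance which corrects for gene length, so levels can be compared between genes. In the input table the listed genes held 54.2% to 99.99% of a library's TPM, and the 2 tables were normalized separately, so levels are compared only within a table. TPM keeps no read number. The main text of the study states a minimum and mean depths but not the depth of each library, and its supplementary figure on sequencing was not read. No label names separate cultures, so every interval and p covers only the spread between these libraries.

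The integrated stress response starts when 1 of several kinases (Perk, Gcn2, Pkr, Hri) phosphorylates the translation initiation factor eIF2 alpha after protein misfolding in the endoplasmic reticulum, amino acid shortage, double-stranded RNA or haem deficiency. General translation falls, while the Atf4 message is translated more efficiently, and the ATF4 protein switches on genes for amino acid supply, redox balance and, when stress persists, cell death. Because much of this control acts on translation, a transcript level of Atf4 is not a measure of ATF4 protein. ATF4 binds together with C/EBP proteins to a composite element, the C/EBP-ATF response element, written here as TGATGNAA.

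That element was searched on both strands in the RefSeq promoter windows of the GRCm38.p6 assembly, from 250 bases before to 50 bases after each annotated start, because the members are grouped by their known place downstream of ATF4. It was present in 3 of the 10 members (30%), against 4.51% of 27025 genes with a window, and a match says nothing about binding in these cells. The 3 matches are shown in the direction of the gene with 10 bases on either side, and capitals mark the element or its reverse complement.
Chac1: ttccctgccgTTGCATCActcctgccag
Trib3: tagctcaggtTTACATCAgccgggcggg
Asns: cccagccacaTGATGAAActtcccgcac
The Chac1 match lay at chr2:119351039-119351066 on the plus strand, with its element starting at position -193 from the annotated start. The Trib3 match lay at chr2:152344029-152344056 on the minus strand, at position 14. The Asns match lay at chr6:7693215-7693242, also on the minus strand, at position -23. The other members did not hold these letters in the windows searched.

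Markers of ductal epithelium were present, but their order within a table was not the same in both experiments. All 9 such markers were in both tables. The keratin Krt18, the most abundant of them, was between 8377 and 9896 TPM in the 12 processing libraries and at 8780 and 8890 TPM in bulk RNA of the input series. Medians in these 2 sets were 7400 and 6679 TPM for Krt8, 4340 and 4059 for Krt7, and 3892 and 6568 for Krt19. They were 1006 and 934 TPM for Cdh1, and 122 and 106 for Sox9. The claudin Cldn7 was at 2.78 to 7.65 TPM in the processing libraries and at 570.0 and 586 TPM in that bulk RNA. The adhesion molecule Epcam was at 32.1 to 38.9 TPM in the former and at 811 and 842 TPM in the latter. The mucin Muc1 was at 854 to 987 TPM in the processing libraries and at 51.8 and 56.0 TPM in bulk RNA. Within the processing table Muc1 thus exceeded Epcam and Cldn7, and within bulk RNA of the input table it was below both, and what sets the experiments apart was not tested. Of 12 leukocyte markers 3 were in the processing table (Ptprc, the CD45 gene, Laptm5 and Coro1a), and their sum ran from 1.10 to 2.49 TPM. Of 10 erythroid and platelet markers 3 were in it, with a sum from 2.42 to 7.78 TPM and Ppbp as the most abundant. The 2 fibroblast markers listed there summed to at most 1.81 TPM and the 2 acinar ones to at most 16.6 TPM.

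Across the 12 processing libraries the members spanned a wide range of levels. Atf4 was the most abundant at 726 TPM on average, followed by Asns at 613, Psat1 at 310, Ppp1r15a at 210.0, Ddit4 at 166, Trib3 at 151, Chac1 at 115, Ddit3 at 63.0, Sesn2 at 58.2 and Atf5 at 5.09 TPM. Neighbours in this order were not always apart. Atf4 exceeded Asns in 10 of 12 libraries, Ddit4 exceeded Trib3 in 8, and Ddit3 exceeded Sesn2 in 8. Asns and Psat1, Chac1 and Ddit3, and Sesn2 and Atf5 kept their order in all 12 libraries.

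Atf4 itself (chr15:80255184-80257541, plus strand, mm10) was lowest before sorting. Its level was 600, 583 and 579 TPM in the Pre-FACS libraries, 754, 754 and 724 TPM in Mock, 804, 765 and 789 TPM in FACS-only, and 802, 771 and 793 TPM in Pre-enriched libraries. All 9 libraries of handled or waiting cells lay above all 3 Pre-FACS libraries, and the FACS-only and Pre-enriched libraries overlapped with each other. The mean level was 1.27-fold that of Pre-FACS for Mock, 1.34-fold for FACS-only and also 1.34-fold for Pre-enriched cells. In RNA from bulk cells, fewer cells that hold a transcript and less of it per cell cannot be told apart. On the log2(TPM + 1) scale the differences were 0.34, 0.42 and 0.42 (SE 0.0428 each, limma over 12 libraries). Among the 3 later conditions the differences were smaller. FACS-only exceeded Mock by 0.08 (95% interval -0.01 to 0.17), Pre-enriched exceeded Mock by 0.08 (-0.01 to 0.17), and Pre-enriched exceeded FACS-only by 0.01 (-0.09 to 0.10). These 6 contrasts share libraries and are given side by side. Atf4 was chosen because it differed most clearly among these conditions, so its values here are a description, and calls made on it support nothing.

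**Figure D1:**
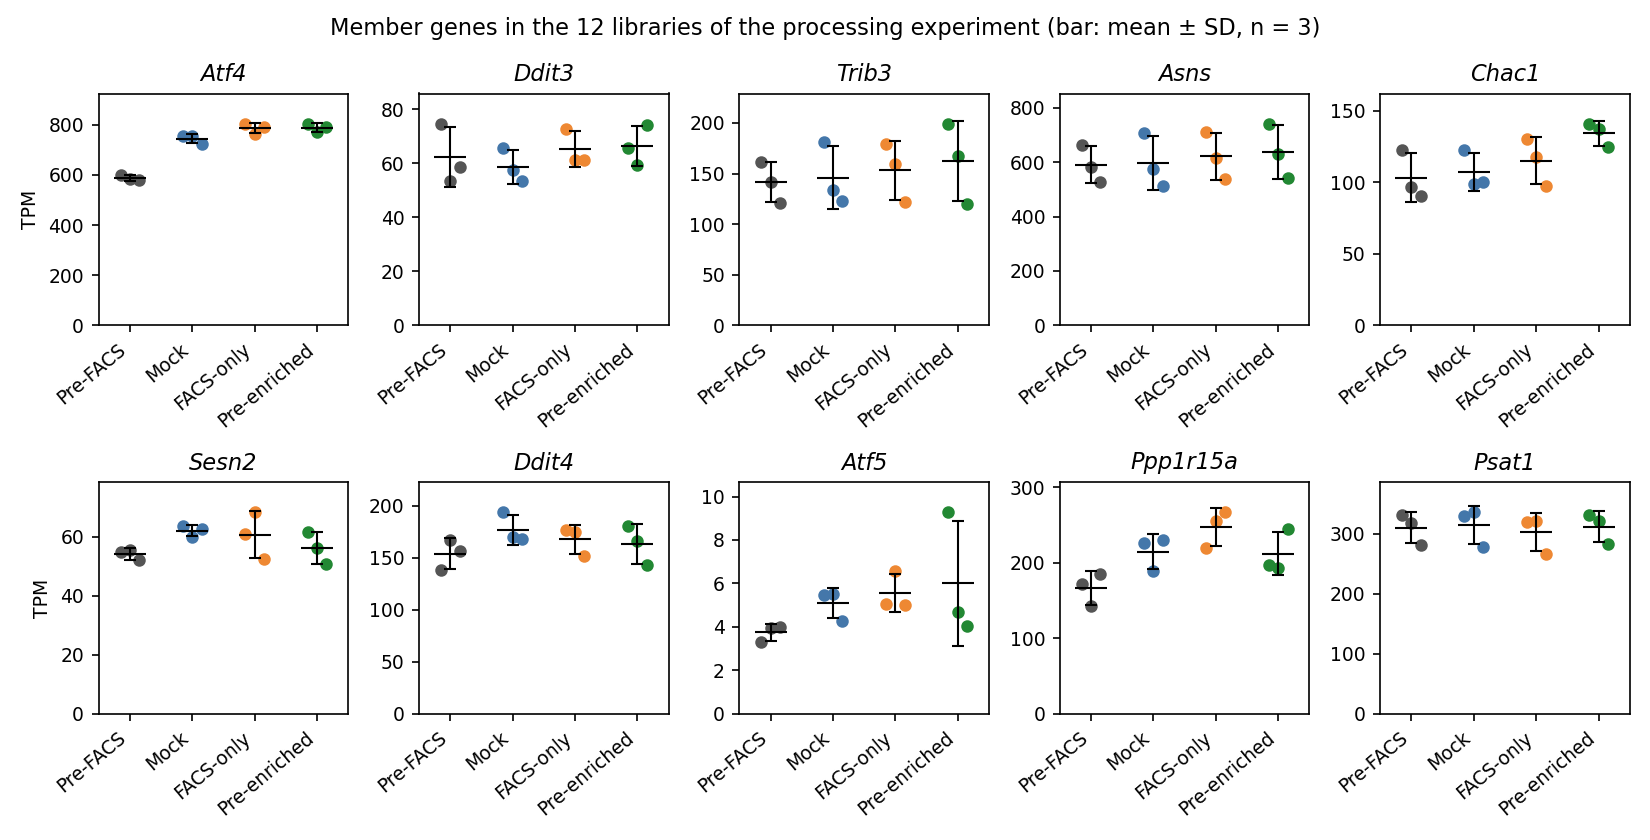
TPM of each member (vertical axis, starting at 0, scaled per gene) in the 12 libraries of the processing experiment by condition, with points for libraries and bars for the mean ± SD of 3. Atf4 stands at 579 to 600 TPM in Pre-FACS and at 724 to 804 TPM in the other 9 libraries, while Psat1 and Ddit3 overlap among all conditions.

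Ppp1r15a encodes GADD34, the subunit that directs protein phosphatase 1 to eIF2 alpha and so reverses its phosphorylation. Relative to its SE it differed the most from Pre-FACS after Atf4 among members in Mock and FACS-only libraries. In Pre-enriched libraries Chac1 differed more by that measure. Ppp1r15a was at 172, 142 and 186 TPM in Pre-FACS and 226, 189 and 230 TPM in Mock libraries. Its level was 219, 256 and 267 TPM in FACS-only, and 198, 193 and 244 TPM in Pre-enriched libraries. As with Atf4, none of the 9 later libraries fell into the Pre-FACS range. The differences from Pre-FACS on the log2(TPM + 1) scale came to 0.37 for Mock, 0.57 for FACS-only and 0.34 for Pre-enriched cells (SE 0.110). Its constitutive counterpart Ppp1r15b differed from Pre-FACS by 0.01, 0.06 and -0.09 in the same order (SE 0.0694). Neither gene passed in limma without the replicate number as a block. The adjusted p of that fit ran from 0.754 to 0.998 for Ppp1r15b, and the lowest for Ppp1r15a was 0.0622, in FACS-only libraries.

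The transcription factors downstream of Atf4 differed less clearly between conditions. Ddit3, the gene of the pro-apoptotic factor CHOP, ranged from 53.5 to 74.6 TPM in Pre-FACS libraries and from 53.2 to 74.0 TPM in the other 9, so the conditions overlapped. Its differences from Pre-FACS came to -0.07 for Mock, 0.07 for FACS-only and 0.10 for Pre-enriched cells (SE 0.119). Atf5, a relative of Atf4 under the same kind of translational control, was at 3.28, 3.93 and 4.01 TPM in Pre-FACS libraries and at 4.05 to 9.28 TPM in the other 9. No library overlapped with Pre-FACS, but the lowest Pre-enriched library (4.05 TPM) was next to the highest Pre-FACS library (4.01 TPM), and the largest value came from 1 Pre-enriched library at 9.28 TPM. Without that library the Pre-enriched difference fell from 0.49 to 0.18.

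Of the stress outputs, neither Chac1 nor Trib3 passed limma's test without the replicate number as a block. Chac1, which encodes an enzyme that breaks down glutathione, was at 123, 96.6 and 90.6 TPM in Pre-FACS and at 141, 138 and 125 TPM in Pre-enriched libraries, which did not overlap, as for 6.0% of genes. Mock libraries (98.7 to 123 TPM) and FACS-only libraries (97.7 to 131 TPM) overlapped with Pre-FACS. The differences from Pre-FACS were 0.06, 0.16 and 0.39 in Mock, FACS-only and Pre-enriched libraries (SE 0.118). Trib3, a pseudokinase induced by ATF4 and CHOP that damps Akt signalling, ranged from 121 to 161 TPM in Pre-FACS and from 120.1 to 199 TPM in the other libraries, with differences of 0.04, 0.11 and 0.18 (SE 0.176).

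The amino acid enzymes stayed close to Pre-FACS on average. Asns, asparagine synthetase, averaged 591 TPM in Pre-FACS and 598, 622 and 639 TPM in Mock, FACS-only and Pre-enriched libraries, with an SD of 67.6 to 100.1 within a condition. In order of replicate number Asns was at 662, 583 and 528 TPM in Pre-FACS and 707, 574 and 514 TPM in Mock. It was at 713, 616 and 539 TPM in FACS-only and 742, 632 and 542 TPM in Pre-enriched libraries. These last 2 conditions exceeded Pre-FACS in every number, and whether the numbers pair libraries is not stated. Psat1, which makes phosphoserine on the way to serine, averaged 310, 314, 302 and 312 TPM in the same order. Its 95% intervals for the difference from Pre-FACS ran from -0.23 to 0.21 on the log2(TPM + 1) scale.

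The 2 brakes on mTORC1 were highest in Mock libraries on average. Sesn2, which senses leucine and restrains mTORC1, was at 59.9 to 63.5 TPM in Mock, above the 52.0 to 55.6 TPM of Pre-FACS, and overlapped with Pre-FACS in the other conditions. Ddit4, the gene of REDD1, was at 168 to 194 TPM in Mock, just above the 138 to 167 TPM of Pre-FACS, and also overlapped in FACS-only and Pre-enriched libraries. The differences of Mock from Pre-FACS were 0.19 for Sesn2 (SE 0.0928) and 0.20 for Ddit4 (SE 0.0927).

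**Figure D2:**
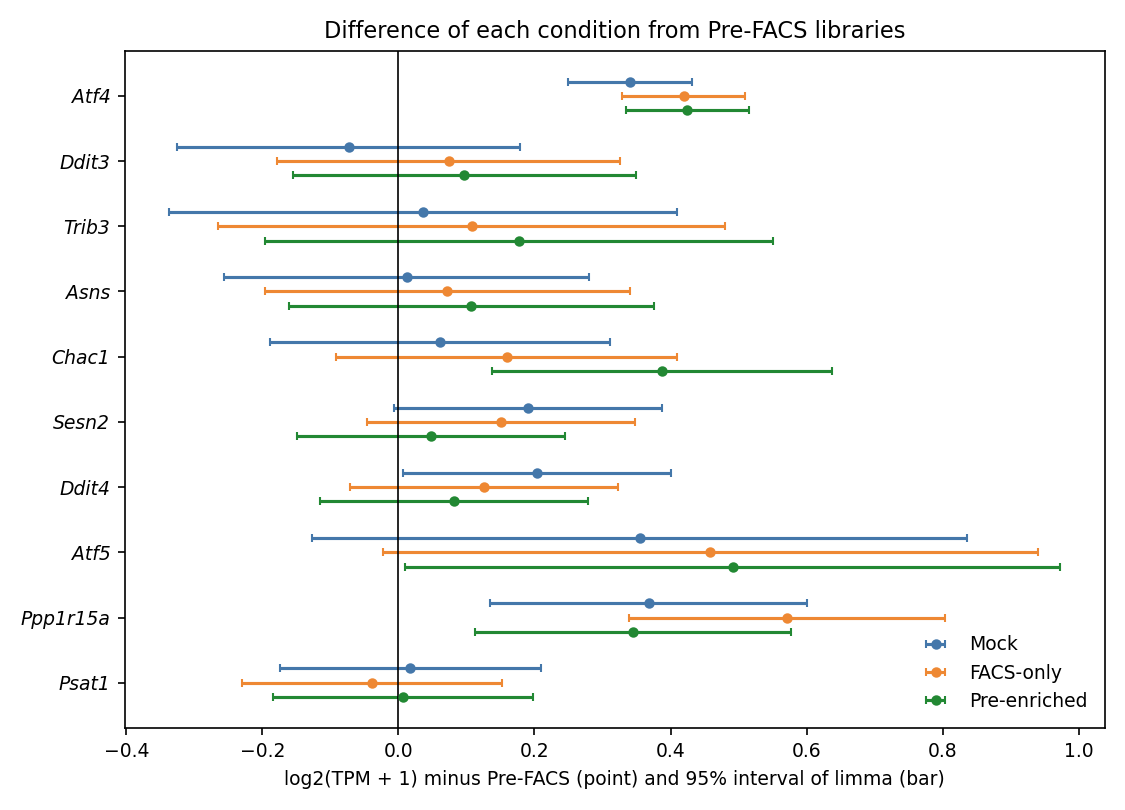
Difference of Mock, FACS-only and Pre-enriched from Pre-FACS libraries in log2(TPM + 1) (horizontal axis) for each member, with bars for the 95% interval of limma. The intervals of Atf4 and Ppp1r15a lie above 0 in all 3 comparisons (Atf4 at 0.34, 0.42 and 0.42), and those of Trib3, Asns and Psat1 span 0.

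Counted over all members, 3 of 10 (Atf4, Atf5 and Ppp1r15a) had all 9 later libraries above the 3 Pre-FACS libraries, against 0.716% of the 12159 genes tested, and 0 had all 9 below, against 0.773%. Relative to Pre-FACS alone, 5 members did not overlap and were higher in Mock (4.93% of genes), 3 were higher after FACS-only (5.81%) and 4 after Pre-enriched handling (6.0%), and 0 were lower in any of them (4.41%, 5.8% and 8.24% of genes). Limma's test, without the replicate number as a block, used Benjamini-Hochberg adjustment over all genes and a threshold of 0.05. By it 1 of 10 members passed in Mock (0.00822% of genes), FACS-only (0.123%) and Pre-enriched libraries (0.0493%) against Pre-FACS. In each case it was Atf4, as its choice fixed. As a description of that call only, it was lost for Mock in 6 of 19 alternative settings, namely without Pre-FACS library 2 or 3, without Mock library 1 or 2, without a trend, and with only the 2 conditions in the fit. Its FACS-only call was lost in 1 of 19 (without a trend) and its Pre-enriched call in 0 of 19. The other 3 comparisons gave 0 genes in limma (684, 945 and 821 at an unadjusted p under 0.05 for FACS-only against Mock, Pre-enriched against Mock and Pre-enriched against FACS-only). With the replicate number as a block they gave 4, 2 and 7 genes. The median of the members' differences from Pre-FACS came to 0.13 for Mock, 0.14 for FACS-only and 0.14 for Pre-enriched cells, beside medians of -0.00462, 0.00100 and -0.0144 over all genes tested. As members were chosen with the result for Atf4 known, nothing is read from these counts.

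The wider stress pathway gave no call in the processing experiment with all 12 libraries and no replicate block. None of 18 genes of amino acid synthesis and transport, 16 eIF2 kinases and translation factors, 9 bZIP partners of ATF4, 12 other ATF4 and CHOP targets, 16 endoplasmic reticulum chaperones and 12 aminoacyl-tRNA synthetases passed limma's test in any of the 6 pairs or in the test over all 4 conditions, in which 13 of 12159 genes (0.107%) passed. At an unadjusted p under 0.05 over the 4 conditions, limma gave 1, 1, 1, 3, 3 and 0 genes of these lists in the order named, while 7.56% of all genes did so. With the replicate number as a block, the bZIP factor Atf3 was higher than in Pre-FACS in Mock (0.0576% of all genes were higher in that fit), FACS-only (0.543%) and Pre-enriched libraries (0.197%). In the same fit the autophagy receptor Sqstm1 among the other targets and the chaperones Dnajb9 and Hspa5 were higher in FACS-only libraries, and Eif2s2 was higher in Pre-enriched libraries. Without Mock library 3, Hspa5 was higher in FACS-only libraries (0.165% of genes), and without FACS-only library 1 both Hspa5 and Dnajb9 were (0.157%). Some of the 83 genes tested had larger differences than others. Hspa5, the chaperone BiP, averaged 1292 TPM in Pre-FACS and 1619 TPM in FACS-only libraries (0.32, SE 0.0636, adjusted p = 0.0622 in limma). Eif2s2, the beta subunit of eIF2, averaged 154 TPM in Pre-FACS and 194 TPM in Pre-enriched libraries (0.33, SE 0.0633, adjusted p = 0.0940). Atf3, a stress-induced bZIP factor, averaged 279 TPM in Pre-FACS and 359, 401 and 340 TPM in Mock, FACS-only and Pre-enriched libraries (adjusted p = 0.509 in the limma test over the 4 conditions). The lowest adjusted p over the 4 conditions was 0.450 for Vegfa among the other targets, 0.642 for the glutamine transporter Slc1a5 and 0.743 for the threonyl-tRNA synthetase Tars.

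Genes whose profile followed Atf4 most closely over the 12 libraries were Noc4l (Pearson's r = 0.92), Ube2b (0.91), Paics (0.91), Echdc2 (0.87) and Ptges3 (0.87), ranked among 8947 genes with a mean of at least 10 TPM. The 12 points share their 4 conditions, and the values are a description. Noc4l, for example, averaged 80.0 TPM in Pre-FACS and 92.8, 94.6 and 92.6 TPM in Mock, FACS-only and Pre-enriched libraries. Among the members Ppp1r15a came nearest (r = 0.73, rank 64), followed by Chac1 (0.53, rank 433), and Psat1 was the least alike (0.02, rank 3858), while Atf5 was too low to be ranked.

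In the input series libraries stood apart by the number of genes they detected, and members followed this division to different degrees. Bulk RNA libraries had 11889 and 11893 genes at 1 TPM or more. Of the 12 pools of 10 cells, pools 5 and 12 had 11497 and 11498 such genes and the other 10 had 9149 to 10760. Of the 6 pools of 100 cells, pools 1 to 3 had 11488 to 11549 and pools 4 to 6 had 10255 to 10400. Among single cells, cells 6 and 9 had 11438 and 11223 and the other 9 had 3919 to 8598. No label names this division. Calls of members, and counts of the wider lists against bulk RNA, are therefore also given without the 100-cell pools 1 to 3 or 4 to 6. Calls of members are given without all 5 pools that had over 11000 genes too.

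The most abundant of the genes listed as markers of blood cells were not spread evenly over these libraries. Of 12 leukocyte markers 4 were in this table, S100a8 being the most abundant, and Ptprc was not listed. S100a8 was at 37.4 and 51.0 TPM in bulk RNA and at 26.8 to 128 TPM in the pools of 100 cells, the top value of all 31 libraries being that of pool 5, one of those with fewer genes. In the pools of 10 cells it was at 51.4 and 34.5 TPM in pools 5 and 12, the highest of this input, and at most at 12.7 TPM in the other 10. In single cells it was highest in cells 9 and 6, at 95.9 and 58.1 TPM. The 10-cell pools 5 and 12 and cells 6 and 9 all had over 11000 genes, although cell 11, with 4106 genes, also had 43.2 TPM. Of 10 erythroid and platelet markers 3 were listed, and Alas2 reached 278 TPM in cell 11, which also had the lowest Krt18 of the single cells (1721 TPM). Among the pools of 100 cells, Alas2 did not exceed 1.94 TPM in pools 1 to 3 (lowest 1.03) and reached 11.6 TPM in pools 4 to 6 (lowest 4.75). In the pools of 10 cells it was at 0.455 and 0.0950 TPM in pools 5 and 12, and ran from 0 to 83.3 TPM in the other 10. Krt18 was between 12107 and 12806 TPM in the 100-cell pools 1 to 3 and between 4517 and 6899 TPM in pools 4 to 6. No fibroblast marker was in the table, and 2 acinar markers summed to at most 2.38 TPM. The part of these markers in the results on members was not tested.

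Atf4 was among the members with the least spread between libraries of an input. It was above 0 in all 11 single cells, at 76.3 TPM in the lowest, 342 TPM in the median and 732 TPM in the highest cell. In the pools of 10 cells it ran from 331 over a median of 381 to 507 TPM. The 100-cell pools 1 to 3 had 319, 345 and 355 TPM and pools 4 to 6 had 234, 332 and 278 TPM, while bulk RNA had 450 and 435 TPM. All 6 pools of 100 cells therefore lay below both bulk RNA libraries, as did 9 of the 12 pools of 10 cells. Pools with over 11000 genes overlapped with the others in Atf4 for both sizes of pool.

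In limma's test the 100-cell pools had less Atf4 than bulk RNA, with a difference of -0.52 on the log2(TPM + 1) scale (SE 0.188, 95% interval -0.91 to -0.13, adjusted p = 0.0388), and 32.3% of the 12231 genes tested passed in this comparison. The exact permutation test, which cannot go below 0.0714 with 6 libraries against 2, gave p = 0.0714. The call was lost without either bulk RNA library (adjusted p = 0.213 without the first and 0.176 without the second, in limma) and without pools 4 to 6 (-0.38, adjusted p = 0.224). In the pools of 10 cells the difference from bulk RNA was -0.17 (-0.53 to 0.20, adjusted p = 0.456 in limma). Pools of 10 cells exceeded pools of 100 cells in Atf4 by 0.36 (0.12 to 0.59), with an exact permutation p of 0.00226 but an adjusted p of 0.488 in limma over all genes. Without the 100-cell pools 4 to 6 that difference was 0.21 (adjusted p = 0.310 in limma).

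These differences are set against a shift of all genes. The median difference over the 12231 genes was -0.86 for pools of 10 cells and -0.79 for pools of 100 cells against bulk RNA, and it was 0.13 and 0.05 after quantile normalization. Relative to that median, Atf4 in the 100-cell pools was at 0.27 on the values as deposited and at -0.84 after quantile normalization, so its direction relative to other genes depends on the scaling. The calls turned in the same way, from 901 higher and 3051 lower genes to 1988 and 1642 for pools of 100 cells, and from 919 and 3907 to 2159 and 1784 for pools of 10 cells. Asns, Chac1 and Psat1 likewise turned from above to below that median in both sizes of pool. In pools of 10 cells Atf4, Ddit3 and Ppp1r15a did so too. Atf5 stayed above the median in both sizes of pool. The difference itself, not taken relative to the median, changed sign for Ddit3 and Atf5 in pools of 10 cells. It also did so for Atf5 in pools of 100 cells, and none of these was called.

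**Figure D3:**
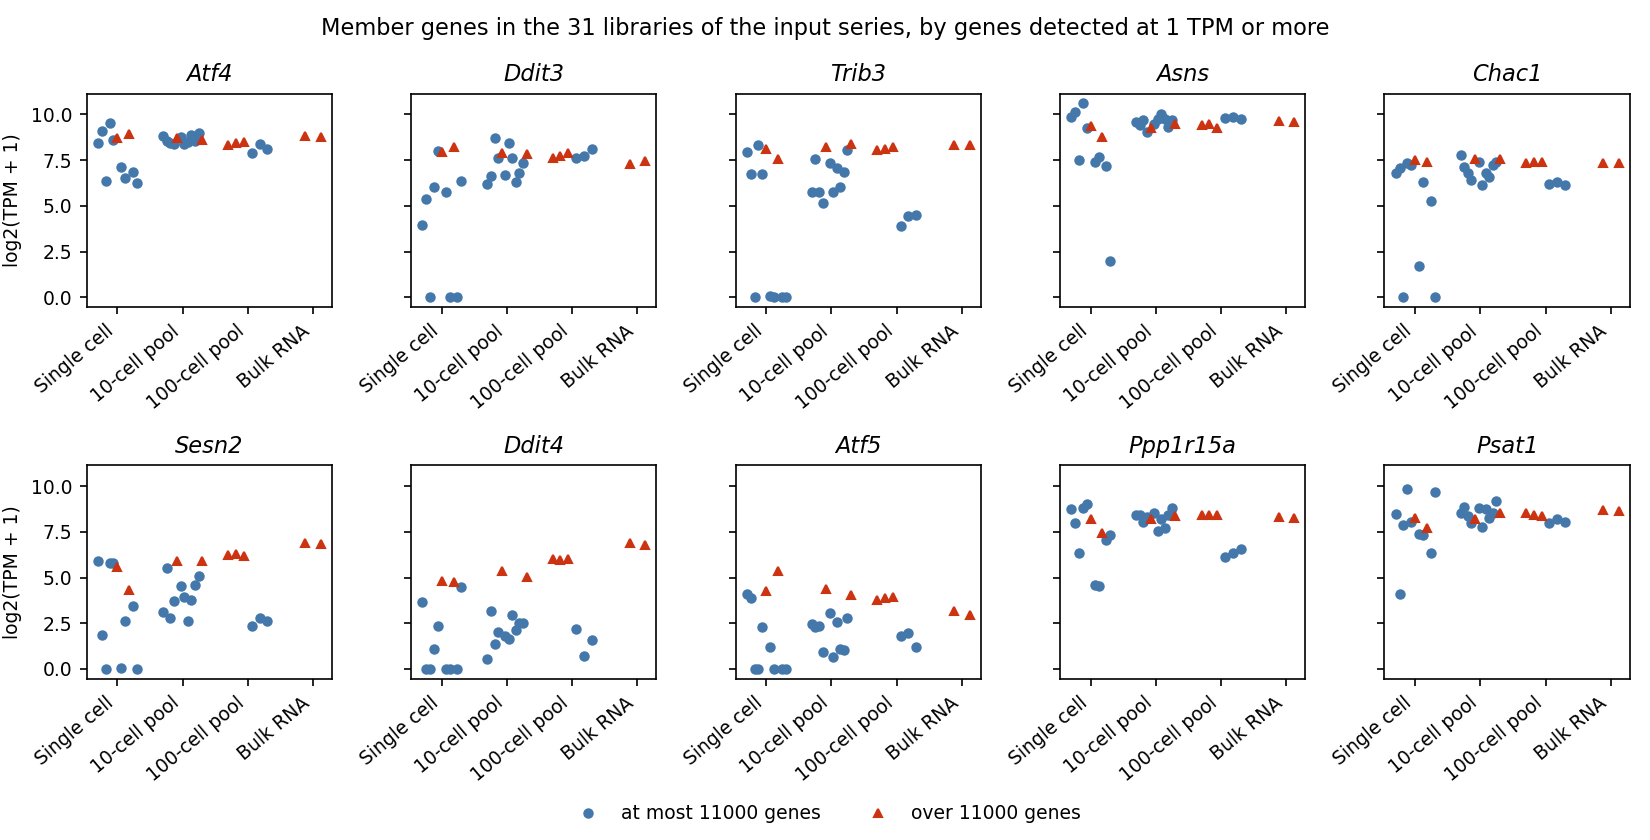
Level of each member as log2(TPM + 1) (vertical axis) in the 31 libraries of the input series, by input. Triangles are libraries with over 11000 genes at 1 TPM or more and circles the others; Ddit4, Sesn2, Trib3 and Atf5 are higher in the triangles among the pools, and Atf4 overlaps.

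Ddit4 (chr10:59949669-59951834) differed most between inputs. Bulk RNA had 117 and 108 TPM. Pools of 10 cells ran from 0.472 over a median of 3.96 to 40.7 TPM, the 2 highest being pools 12 and 5 at 31.2 and 40.7 TPM. The 100-cell pools 1 to 3 had 64.6, 61.3 and 62.6 TPM, and pools 4 to 6 had 3.49, 0.612 and 1.97 TPM. No sorted pool reached the level of bulk RNA. The difference of Ddit4 from bulk RNA was -4.24 in pools of 10 cells (SE 1.23, adjusted p = 0.0103 in limma, where 39.5% of genes passed, and exact permutation p = 0.0220) and -3.09 in pools of 100 cells, which missed the threshold (SE 1.31, adjusted p = 0.0729 in limma). The 10-cell call was lost without the first or the second bulk RNA library (adjusted p = 0.106 and 0.0951 in limma), with differences of -4.18 and -4.29.

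Sesn2 (chr4:132492032-132510501) behaved alike in its values. It stood at 118 and 111 TPM in bulk RNA, ran from 5.23 over 18.4 to 59.7 TPM in pools of 10 cells, and the 100-cell pools had 74.7, 78.0 and 71.2 TPM (1 to 3) and 4.15, 5.82 and 5.08 TPM (4 to 6). All 18 sorted pools lay below both bulk RNA libraries. The difference from bulk RNA was -2.56 in pools of 10 cells (SE 0.991, adjusted p = 0.0446 in limma, exact permutation p = 0.0220) and -2.44 in pools of 100 cells (SE 1.06, adjusted p = 0.0782). Without the first or the second bulk RNA library the 10-cell call was lost (adjusted p = 0.217 and 0.199 in limma), with differences of -2.52 and -2.60.

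Trib3, Chac1 and Ppp1r15a were divided among the pools of 100 cells. Trib3 was at 262, 277 and 293 TPM in pools 1 to 3, next to 316 and 319 TPM in bulk RNA, and at 14.0, 20.5 and 21.3 TPM in pools 4 to 6. Chac1 was at 160.4, 166 and 168 TPM in pools 1 to 3, at 71.6, 76.4 and 68.7 TPM in pools 4 to 6, and at 158 and 161 TPM in bulk RNA. Ppp1r15a was at 346, 345 and 338 TPM in pools 1 to 3, at 68.3, 81.3 and 91.9 TPM in pools 4 to 6, and at 313 and 304 TPM in bulk RNA. Pools 4 to 6 thus lay below bulk RNA for all 3 genes, and pools 1 to 3 lay above the higher bulk RNA library for Ppp1r15a and below the lower one for Trib3.

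In the pools of 10 cells Trib3 ran from 34.5 over 124 to 329 TPM, Chac1 from 70.6 over 142 to 218 TPM and Ppp1r15a from 188 over 323 to 438 TPM. With all pools weighted alike none of the 3 genes was called in any comparison of inputs (adjusted p from 0.121 to 0.967 in limma). With array weights, which give libraries unequal weight in the same limma fit and whose estimation stopped before it converged, Trib3 was lower in pools of 10 cells than in bulk RNA (-1.18, adjusted p = 0.0179, with 58.2% of genes called lower). Ppp1r15a was higher in pools of 10 than of 100 cells by 0.86 (95% interval 0.22 to 1.51), with an exact permutation p of 0.0419 and an adjusted p of 0.570 in limma. Its direction rested on the 100-cell pools 4 to 6, without which the difference was -0.18 (adjusted p = 0.544 in limma).

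Asns, Psat1, Ddit3 and Atf5 were not called in any comparison of inputs with all pools weighted alike. With array weights Psat1 was lower in pools of 100 cells than in bulk RNA (-0.32, adjusted p = 0.0474 in limma, with 46.3% of genes called lower), and so were Ddit4 and Sesn2 (adjusted p = 0.0147 and 0.0179). Asns was at 783 and 773 TPM in bulk RNA, ran from 517 over 728 to 1035 TPM in pools of 10 cells, and from 618 over 777 to 929 TPM in pools of 100 cells. Its difference from bulk RNA was -0.07 (-0.48 to 0.34) and -0.01 (-0.45 to 0.43). Psat1 was at 413 and 395 TPM in bulk RNA, above all 6 pools of 100 cells (255 to 366 TPM) but within the range of the pools of 10 cells (214 to 587 TPM). On the values as deposited, Ddit3 was the only member with a positive difference of the 100-cell pools from bulk RNA (0.39, -0.65 to 1.42): its 158 and 175 TPM in bulk RNA lay below all 6 pools of 100 cells (194 to 275 TPM), whereas pools of 10 cells ran from 72.4 to 417 TPM. Atf5 was the scarcest in bulk RNA (7.91 and 6.59 TPM) while the 100-cell pools had 12.9 to 14.0 TPM (1 to 3) and 1.26 to 2.87 TPM (4 to 6).

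**Figure D4:**
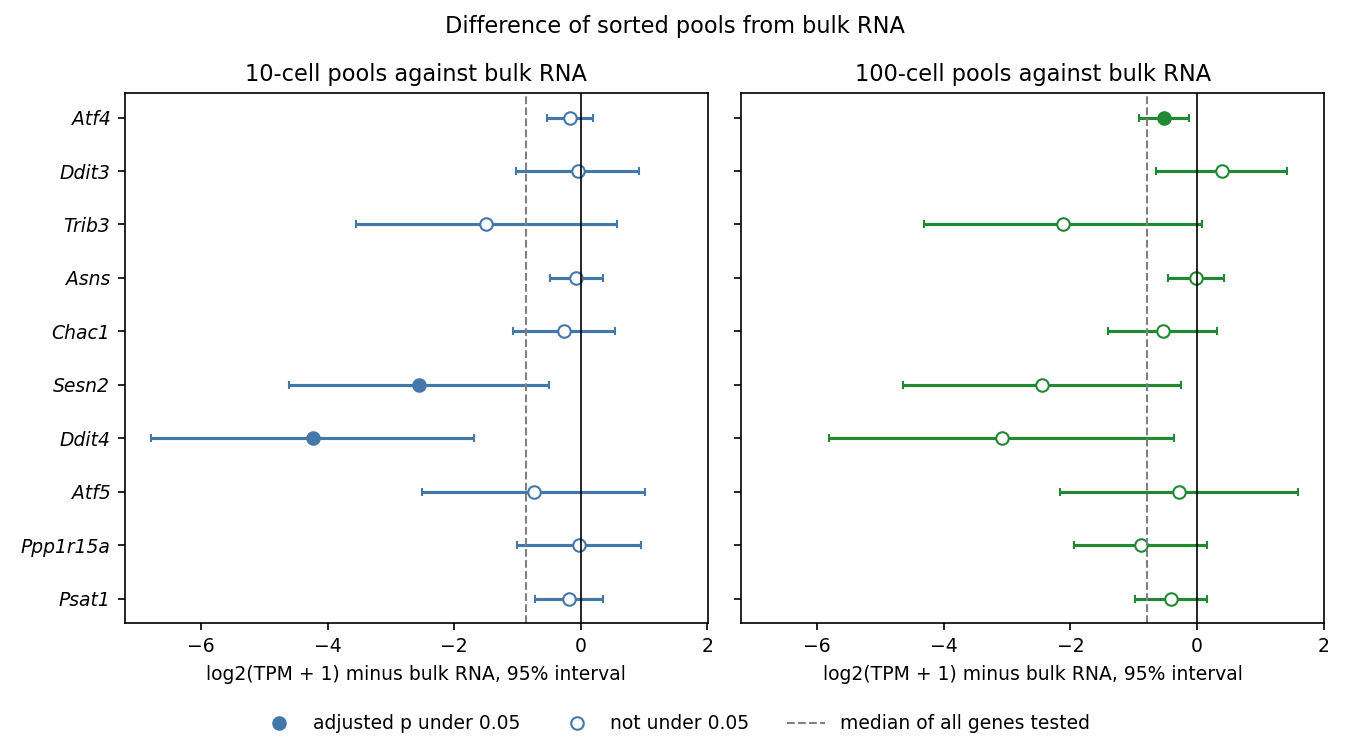
Difference of pools of 10 cells (left) and 100 cells (right) from bulk RNA in log2(TPM + 1) (horizontal axis) for each member, with 95% intervals of limma, filled points for an adjusted p under 0.05 and a dashed line at the median of all genes tested (-0.86 and -0.79). Ddit4 and Sesn2 are filled at left and Atf4 at right.

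In all, 2 of 10 members were lower (31.9% of genes) and 0 higher (7.51%) in pools of 10 cells than in bulk RNA, 1 was lower (24.9%) and 0 higher (7.37%) in pools of 100 cells, and 0 of 10 were called between the pools (0.00818% of genes, or 1 gene by limma, with 880 at an unadjusted p under 0.05, among them the members Atf4 and Ppp1r15a). On the values as deposited, the median difference of the members was -0.23 and -0.53 against bulk RNA, beside -0.86 and -0.79 over all genes. After quantile normalization the medians over all genes were 0.13 and 0.05. Every member but Atf5 then lay below that median in pools of 10 cells. In pools of 100 cells every member but Atf5 and Ddit3 did. The place of the members relative to genes at large thus depends on the scaling.

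The 2 sets of 100-cell pools differed in most genes, and the members were split much as genes at large. In pools 1 to 3 Trib3, Chac1, Sesn2, Ddit4, Atf5, Ppp1r15a and Psat1 lay above pools 4 to 6 without overlap (7 of 10 members, against 59.1% of genes), and Asns lay below (1 of 10, against 16.0%). Among the pools of 10 cells, pools 5 and 12 lay above the other 10 for Trib3, Sesn2, Ddit4 and Atf5 (4 of 10 members, against 18.7% of genes), and 0 lay below (1.14%). Atf4 and Ddit3 overlapped in both inputs. Trib3, Sesn2, Ddit4 and Atf5 were thus the members that followed the number of detected genes in both sizes of pool, a description of libraries that were set apart by that number.

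Without the 100-cell pools 1 to 3, more members were called. Pools 4 to 6 were then lower than bulk RNA in 6 of 10 members (Atf4, Chac1, Ddit4, Ppp1r15a, Sesn2 and Trib3), while 45.4% of 12163 genes were lower, and pools of 10 cells were lower in Ddit4 and Sesn2 (2 of 10, against 36.5% of genes). The differences were -5.35 for Ddit4, -4.27 for Sesn2, -4.04 for Trib3 and -1.94 for Ppp1r15a (adjusted p = 0.000393, 0.000384, 0.000324 and 2.59e-05 in limma). Pools of 10 cells then exceeded pools 4 to 6 in Atf4 (0.50), Chac1 (0.87), Ppp1r15a (1.91) and Trib3 (2.55), with adjusted p of 0.0183, 0.0299, 3.59e-05 and 0.00328 in limma, while 12.9% of genes were higher. With pools 5 and 12 also left out, the Chac1 call between pools was lost (0.77, adjusted p = 0.0587 in limma), and the other 3 stayed called (10.7% of 12034 genes were higher). The same 6 members were then lower in pools of 100 cells (45.5% of genes), and Ddit4, Sesn2 and Trib3 were lower in pools of 10 cells (3 of 10, against 40.6%). Without pools 4 to 6 in place of 1 to 3, 0 members were called in limma in pools of 100 cells against bulk RNA (7.02% of genes) or between pools (0.033%), and Ddit4 and Sesn2 were lower in pools of 10 cells (37.7%). The differences of the 100-cell pools 1 to 3 from bulk RNA were then -0.83 for Ddit4, -0.61 for Sesn2 and -0.20 for Trib3, against -3.09, -2.44 and -2.12 with all pools. The sign turned for Ppp1r15a (0.15, against -0.89), Chac1 (0.04, against -0.55) and Atf5 (0.81, against -0.29).

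The wider pathway was lower in pools than in bulk RNA in many of its genes, as were genes at large (31.9% of genes in pools of 10 cells and 24.9% in pools of 100 cells, the shares beside which the counts of each list stand). Of 18 genes of amino acid synthesis and transport, 7 were lower and 1 higher in pools of 10 cells, and 8 were lower in pools of 100 cells. Without the 100-cell pools 1 to 3, 8 and 14 were lower and 1 higher in each. Of the 12163 genes tested in that fit 4435 and 5518 were lower (36.5% and 45.4%), and 1063 and 1296 were higher. Without pools 4 to 6, 8 and 3 were lower (4577 and 516 of the 12136 genes tested in that fit). After quantile normalization 6 were lower in each, beside 14.6% and 13.4% of all genes. The cystine transporter Slc7a11 had a mean of 361 TPM in bulk RNA, 74.4 TPM in pools of 10 cells (-2.32, SE 0.284, adjusted p = 1.94e-05 in limma) and 101 TPM in pools of 100 cells. The neutral amino acid transporters Slc38a2 and Slc7a5 differed by -1.52 and -2.98 in pools of 100 cells. The median difference of the list was -1.40 and -1.44 in pools of 10 and 100 cells, beside -0.86 and -0.79 over all genes. With 1 bulk RNA library left out, whichever it was, 3 genes of the list were called lower in pools of 10 cells and 1 in pools of 100 cells. In those fits 8.89% to 10.1% of all genes were lower and 1.6% to 1.82% higher in pools of 10 cells, and 1.83% to 2.58% were lower and 1.06% to 1.43% higher in pools of 100 cells.

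Of 16 eIF2 kinases and translation factors, 2 were higher and 6 lower in pools of 10 cells, and 4 were higher and 6 lower in pools of 100 cells. Without the 100-cell pools 1 to 3, 5 were higher and 10 lower in pools of 100 cells (1296 and 5518 of all genes). Without pools 4 to 6, 2 were higher and 2 lower (336 and 516 of all genes). In pools of 10 cells 3 were higher and 6 lower in either fit. Of all genes 1063 were higher and 4435 lower there without pools 1 to 3 (12163 tested). Without pools 4 to 6 these were 1079 and 4577 (12136 tested). Ppp1r15b, the constitutive partner of protein phosphatase 1 that acts on eIF2 alpha, was lower in both sizes of pool (-2.52 and -2.36). Eif4ebp1, the mTORC1-controlled repressor of cap-dependent translation, was higher (0.90 and 1.21), and so was Eif2s2 (1.46 and 1.51). After quantile normalization the split of this list was 5 higher and 4 lower in pools of 10 cells, where 17.7% of all genes were higher and 14.6% lower, and 4 and 4 in pools of 100 cells, where these shares were 16.3% and 13.4%. With 1 bulk RNA library left out, it was 2 higher and 3 lower in pools of 10 cells and 2 and 1 in pools of 100 cells.

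Of 9 bZIP partners 3 were lower in each size of pool, led by Atf6 (-2.36 and -2.35) and Nfe2l1 (-3.65 and -3.17). Of 12 other ATF4 and CHOP targets 4 were lower in each, with Fam129a (-3.89 and -3.18) and Vegfa (-1.95 and -1.80) among them. Of 16 chaperones and genes of the unfolded protein response 1 was higher and 4 lower in pools of 10 cells, and 2 higher and 6 lower in pools of 100 cells. Ern1, which encodes the stress sensor IRE1, was lower (-3.45 and -3.20), and so was the chaperone Hyou1 (-4.40 and -3.88). After quantile normalization 2 genes of that list were higher and 4 lower in pools of 10 cells (17.7% and 14.6% of all genes). In pools of 100 cells 2 were then higher and 6 lower (16.3% and 13.4%). The bZIP and target lists then had 3 of 9 and 3 of 12 genes lower in pools of 10 cells. In pools of 100 cells they had 3 of 9 and 4 of 12. With 1 bulk RNA library left out, 2, 0 and 3 genes of the bZIP, target and chaperone lists were called lower in pools of 10 cells, and 0, 0 and 2 in pools of 100 cells. With both libraries and values as deposited, 3 of 9, 4 of 12 and 4 of 16 were lower in pools of 10 cells, beside 31.9% of all genes. In pools of 100 cells these were 3 of 9, 4 of 12 and 6 of 16, beside 24.9%. Without the 100-cell pools 1 to 3, the lists had 4, 7 and 10 genes lower in pools of 100 cells (5518 of all genes). Without pools 4 to 6 they had 1, 0 and 2 (516 of all genes). Pools of 10 cells were lower in 3, 5 and 6 genes in either fit (4435 and 4577 of all genes). The adjusted p of the genes named from these lists ran from 4.12e-05 to 0.0197 in limma.

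Aminoacyl-tRNA synthetases, which charge tRNA and are a known ATF4 output, were lower in 3 of 12 genes in pools of 10 cells and in 8 of 12 in pools of 100 cells, with Iars (-2.70 and -2.54) and Lars (-1.72 and -1.83) in both. Of all genes 31.9% and 24.9% were lower. Without the 100-cell pools 1 to 3 these counts were 9 and 12 of 12, while 4435 and 5518 of all genes were lower. Without pools 4 to 6 they were 9 and 0 of 12, while 4577 and 516 of all genes were lower. With 1 bulk RNA library left out these counts were 1 and 0, where 8.89% to 10.1% and 1.83% to 2.58% of genes were lower, and after quantile normalization 7 and 9, where 14.6% and 13.4% of genes were lower. Between the sizes of pool, 0 of 12 were called with all pools in the fit (lowest adjusted p 0.685 in limma). Without the 100-cell pools 1 to 3, 11 of 12 were higher in pools of 10 than of 100 cells (12.9% of genes), and 11 of 12 also without pools 5 and 12 (10.7%).

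Spread among pools set the members apart. Over the 2175 genes that reached 100 TPM in each bulk RNA library, the median coefficient of variation among the 12 pools of 10 cells was 25.9%. It was 13.9% for Atf4, at percentile 8.0 of these genes, and 18.4% for Asns. In the same 12 pools it was 58.3% for Ddit3, 71.7% for Trib3, 79.5% for Sesn2 and 142% for Ddit4. Among the 6 pools of 100 cells it was 14.8% for Atf4, 14.7% for Psat1, 14.0% for Ddit3, 68.0% for Ppp1r15a, 96.0% for Trib3, 95.9% for Sesn2 and 103% for Ddit4, with pools 1 to 3 and 4 to 6 together. Without the 10-cell pools 5 and 12 the values were 15.3% for Atf4, 66.5% for Ddit3, 67.3% for Trib3, 71.3% for Sesn2 and 63.3% for Ddit4, beside a median of 25.7%. Ddit4 and Sesn2, at 112 and 115 TPM in bulk RNA, entered the set of genes compared through bulk RNA and had medians of 18.4 TPM (Sesn2) and 3.96 TPM (Ddit4) in the pools of 10 cells, so their spread is not ranked among these genes, and the part of level in it was not tested.

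Likeness to Atf4 was looked at over the 18 sorted pools too. The nearest of 6763 genes were Retsat (r = 0.83), Casp8 (0.81), Pcyox1l (0.81), Gnl2 (0.80) and Suclg2 (0.80). None of them was among the 5 nearest in the processing experiment. Among the members Ppp1r15a (r = 0.69), Psat1 (0.63), Chac1 (0.62) and Trib3 (0.55) were positive, and Ddit3 was at -0.53. The 18 points share 2 inputs and the division by detected genes, so these values describe the libraries only.

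In single cells detection of members went with detection of genes in general. At 1 TPM or more, 87 of 110 values (11 cells by 10 members) were detected. The 4 cells that had all 10 members at 1 TPM or more held 6744 to 11438 genes, and the 7 cells with fewer held 3919 to 6736. Genes that bulk RNA held at 100 TPM or more were below 1 TPM in 22.2% of cases in cell 8 and 23.7% in cell 11, and in 0% in cells 6 and 9, so a member listed at 0 is not shown to be absent.

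Atf4, Asns, Ppp1r15a and Psat1 were above 0 in all 11 cells. Ddit4 and Atf5 were listed at 0 in 5 cells each, Trib3 in 4, Ddit3 in 3, and Chac1 and Sesn2 in 2. Atf4 was at 76.3 to 139 TPM in the 5 cells with the fewest genes and at 342 to 732 TPM in the other 6, a split made after the values were seen. Of those 5 cells, 4 (cells 7, 8, 10 and 11) had 54.2% to 65.1% of a library's TPM in listed genes and cell 3 had 90.6%, while cell 5, among the other 6, had 65.3%. The part of this in the values was not tested. Asns ran from 2.97 TPM in cell 11 to 1562 TPM in cell 4, and Psat1 from 16.5 TPM in cell 2 to 909 TPM in cell 4. In cell 11 Asns was lowest while Psat1 was at 809 TPM, and in cell 2 Psat1 was lowest while Asns was at 1106 TPM.

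**Figure D5:**
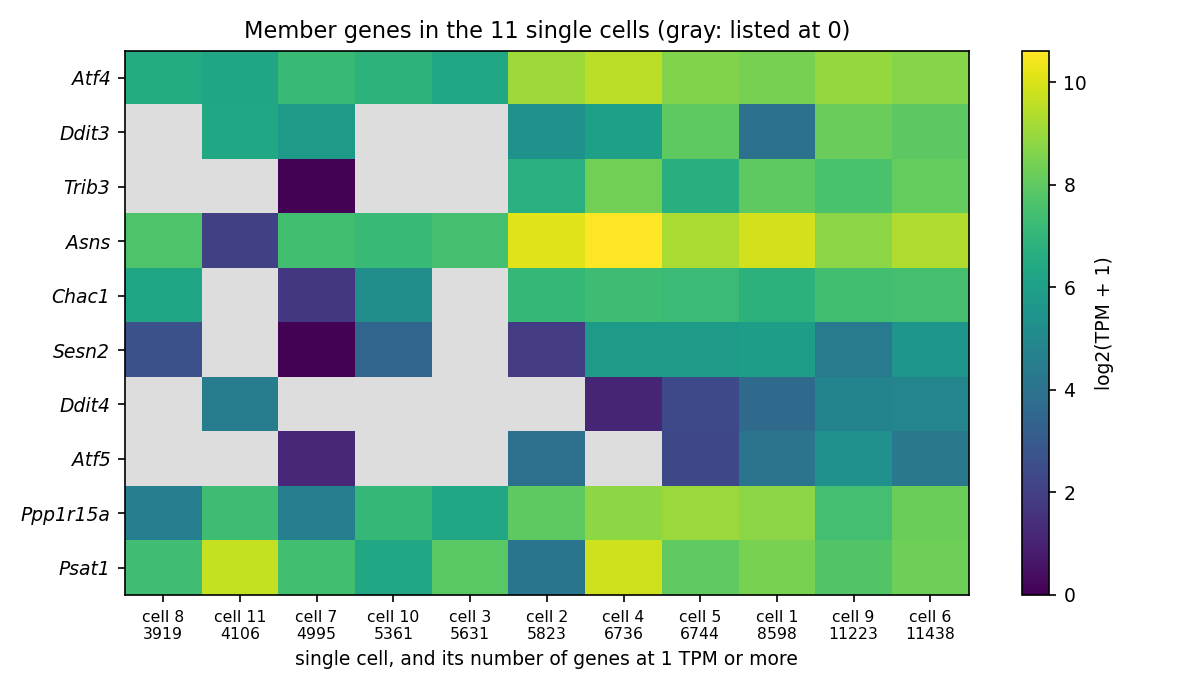
Level of each member as log2(TPM + 1) (color scale) in the 11 single cells, ordered from left to right by the number of genes at 1 TPM or more (3919 to 11438), with gray for members listed at 0. Atf4, Asns, Ppp1r15a and Psat1 have a value in every cell, and gray fields lie among the 7 cells with the fewest genes.

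Several members share sequence with neighbours on the other strand, and the library kit does not mark strand. Ddit3 shares 68 of its exonic bases (3.97%) with Mars, the methionyl-tRNA synthetase, Atf5 shares 82 bases (4.11%) with Il4i1 and Nup62, and Ppp1r15a shares 12 bases (0.409%) with Tulp2. Reads from these stretches cannot be told apart. Of the 31-base words in their transcripts, 2.40% for Ddit3, 2.76% for Atf5 and 2.18% for Psat1 also occur in other genes, and 0% for the other 7 members.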

How the data were processed

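The 12 processing and 31 input libraries of PD798 RNA were made with the SMART-Seq v4 kit, which does not mark strand. According to the methods of the study, the authors aligned reads with STAR to mm10 with spike-in sequences, counted them with featureCounts, applied upper-quartile normalization with EDASeq and deposited TPM values. All values used here are TPM as deposited. Log2(TPM + 1) was fitted with limma 3.58.1 (trend, R 4.3.3) for genes at 1 TPM or more in at least 3 libraries, p-values being adjusted by Benjamini-Hochberg and called under 0.05. The processing fit held all 12 libraries, and the input fit held 20 libraries without single cells, which are described only. Exact permutation tests were two-sided. The fit was tested on simulated data. Members and gene lists were chosen with earlier results of these data known. Members were named in every comparison. From each list up to 3 called genes with the lowest p were named, or the largest change where none was called, and the lowest p over the 4 conditions. Gene positions are those of GENCODE for mm10. Alternatives covered the pseudocount, filter, scaling, trend, weights, replicate block and omitted libraries. The genotype of the line is given in part, and the rest is not reported here.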

Additional observations from a re-analysis of the deposited data

How the results depend on the processing

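The differences of Atf4 from Pre-FACS stayed between 0.33 and 0.36 in Mock, 0.40 and 0.44 in FACS-only, and 0.41 and 0.44 in Pre-enriched libraries over 20 settings, many of which cannot move a difference of group means. Of 570 alternative values of members in the processing experiment 330 were identical for that reason, 239 of the other 240 moved by less than the replicate spread, and Atf5 without the first Pre-enriched library moved by more. In the input series 306 calls of members over the alternative limma fits kept their side of the threshold, 22 gained it and 12 lost it. Calls there depended on both bulk RNA libraries. The Sesn2 call in pools of 10 cells was also lost with a pseudocount of 0.1, without a filter and without a trend, and the Atf4 call in pools of 100 cells with that pseudocount and without a trend. The causes were not tested.

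Counts of called genes moved more. Leaving out 1 library gave 0 to 1 genes for Mock, 5 to 24 for FACS-only and 1 to 7 for Pre-enriched against Pre-FACS, 0 to 2 for Pre-enriched against FACS-only and 1 to 17 over the 4 conditions. FACS-only against Pre-FACS fell to 5 without FACS-only library 2, 6 without FACS-only 3, 7 without Pre-FACS 2 or Mock 1, 8 without Pre-FACS 3 and 9 without Pre-enriched 1, and rose to 23 without FACS-only 1 and 24 without Mock 3. Without a bulk RNA library 1272 to 1448 genes were called in pools of 10 cells and 351 to 486 in pools of 100 cells, with the lone library assumed to vary like the others. Without a trend the counts were 0 for Mock and FACS-only against Pre-FACS, 1 and 2 for Pre-enriched against Mock and FACS-only, 1 over the 4 conditions and 0 between pools. Without a filter they were 1 and 1 for Pre-enriched against Mock and FACS-only, 7 over the 4 conditions and 3 between pools. With only the 2 conditions compared they were 0 for Mock against Pre-FACS, and 4 and 1 for Pre-enriched against Mock and FACS-only. Array weights gave 9062 and 7373 genes against bulk RNA, a pseudocount of 0.1 gave 2394 in pools of 100 cells, and quantile normalization gave 2 between pools. Without the 100-cell pools 1 to 3 the counts were 6814 against bulk RNA and 2183 between pools, without pools 4 to 6 they were 852 and 4, and without all 5 pools over 11000 genes, chosen after seeing the data, 6753 and 1791.

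With the replicate block the counts were 7, 77 and 37 for Mock, FACS-only and Pre-enriched against Pre-FACS, 4, 2 and 7 among the handled conditions and 61 over the 4 conditions. Over all genes same-numbered libraries deviated together only weakly (r from -0.04 to 0.23 over 18 pairs, 2 of them over 0.1). Pairs of different numbers ran from -0.16 to 0.08 over 36 pairs. The median r was 0.07 for same numbers and -0.03 for different numbers, and 9 of 12 libraries matched best with their own number. The study sorted the same sample with and without pre-enrichment, but no label states whether the numbers pair libraries. The main fit took no pairing, so its SEs and intervals include any spread between the numbers. Of the members 3 (Trib3, Asns and Chac1) were highest in number 1 in all 4 conditions, against 2.68% of genes. Lowest in number 3 in all 4 were 3 members (Trib3, Asns and Psat1), against 2.76% of genes. Trib3 and Asns, 2 of the members, showed both, against 0.510%. Ppp1r15a was highest in number 3 in all 4 conditions, a pattern whose share of all genes was not computed. The tables hold no read numbers per library, so no depth limit was computed.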
